A study of Mus musculus with 3 samples.

Results

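Glycolytic enzyme genes were followed in macrophages from the spleens of leukemic mice. The 10 genes were Hk2, Gpi1, Pfkl, Pfkfb3, Aldoa, Tpi1, Gapdh, Pgk1, Pkm and Ldha. They were taken by name, through their NCBI gene IDs, as 10 of the 17615 genes listed in any of the deposited tables. Each of the 10 was listed in all 3 libraries.

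The series holds 3 libraries, 1 from each group. In the mM-CSF group the leukemia cells carried much mM-CSF, in the sM-CSF group they carried much sM-CSF, and the protocol lists leukemia cells with neither form as the remaining group. The title of the third library names neither form, so it was taken as the control by elimination, and every difference from the control rests on that assignment. M-CSF, also called CSF1, is the growth factor on which most macrophages depend. In all 3 groups the recipients were C57BL/6J mice, 6 to 8 weeks old, that received 800000 GFP+BFP+ leukemia cells each and no irradiation, so that they kept their own blood-forming cells. The macrophages were sorted at day 18 by the gate GR1-, intermediate CD115, F4/80+. The labels do not say how many mice went into a library, and no group without leukemia was included. Because each group had 1 library, the spread between replicates is unknown, no difference was tested, no p-value is given, and every value describes these libraries alone.

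Glycolysis breaks glucose down to pyruvate in the cytosol. It spends ATP in its upper steps, where hexokinase traps glucose in the cell and phosphofructokinase commits it to breakdown, and regains ATP in its lower steps. Lactate dehydrogenase then turns pyruvate into lactate and renews the NAD+ that the pathway needs. Macrophages are known to raise glycolysis when activated by microbial products, and the transcription factors HIF-1 and MYC are known regulators of many of its genes.

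In the mM-CSF library 8 of the 10 genes had higher levels than in the control library (7 after rescaling to TPM, which sets the sum of all per-length levels equal between libraries, where Gpi1 turned), while Pfkfb3 and Hk2 had lower ones. Pfkfb3 stood furthest apart, at 8.22 FPKM in the mM-CSF library and 42.6 FPKM in the control library. FPKM, the unit of the deposited levels, is the number of fragments relative to gene length and to the library's mapped fragments. In the sM-CSF library all 10 genes lay within 2-fold of the control. Hk2 and Pfkfb3 were the most negative there too as deposited, with shares of counts 1.44-fold and 1.38-fold lower than in the control library. They were no longer the most negative once the dependence on gene length, given below, was subtracted. In bulk RNA such as this, fewer cells of a type and less RNA per cell cannot be told apart. In every comparison the differences stood beside a dependence on gene length across all genes, weakest between sM-CSF and control. The genes are set against it further on.

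Sequence is shown here for those of the 10 genes past a 2-fold difference in any comparison, as deposited or with the length trend removed. The windows run from 250 bases before to 50 bases after an annotated start (RefSeq, GRCm38.p6), all on the minus strand, 5′ to 3′. Capitals mark ACGTG on either strand (CACGT in the printed strand where it lies on the other). ACGTG is a core of the sites HIF-1 binds, and CACGTG, which contains it, is the E-box that MYC binds. Pfkfb3 has a pair of annotated starts. Tpi1 was past 2-fold between mM-CSF and sM-CSF. Pfkl was past it between mM-CSF and control with the length trend removed, and not as deposited.
Hk2, chr6:82774405-82774704: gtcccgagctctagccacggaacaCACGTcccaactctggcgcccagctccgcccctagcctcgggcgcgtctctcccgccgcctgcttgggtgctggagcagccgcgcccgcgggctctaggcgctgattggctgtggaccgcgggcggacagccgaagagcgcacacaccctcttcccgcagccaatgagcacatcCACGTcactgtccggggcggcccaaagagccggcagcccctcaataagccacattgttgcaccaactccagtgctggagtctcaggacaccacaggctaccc
Pfkl, chr10:78009758-78010057: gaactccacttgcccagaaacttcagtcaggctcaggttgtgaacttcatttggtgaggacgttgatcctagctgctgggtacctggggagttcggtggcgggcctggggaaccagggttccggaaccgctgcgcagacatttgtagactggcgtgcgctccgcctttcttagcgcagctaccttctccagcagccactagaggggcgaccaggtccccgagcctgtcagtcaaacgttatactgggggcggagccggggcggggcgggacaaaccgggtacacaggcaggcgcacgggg
Pfkfb3 upstream start, chr2:11553880-11554179: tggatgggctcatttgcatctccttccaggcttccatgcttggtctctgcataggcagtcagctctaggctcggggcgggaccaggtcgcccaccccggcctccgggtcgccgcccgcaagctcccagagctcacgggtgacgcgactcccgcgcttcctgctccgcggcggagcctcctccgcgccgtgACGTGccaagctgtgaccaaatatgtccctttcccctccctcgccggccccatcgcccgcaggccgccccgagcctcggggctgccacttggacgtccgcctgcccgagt
Pfkfb3 downstream start, chr2:11502041-11502340: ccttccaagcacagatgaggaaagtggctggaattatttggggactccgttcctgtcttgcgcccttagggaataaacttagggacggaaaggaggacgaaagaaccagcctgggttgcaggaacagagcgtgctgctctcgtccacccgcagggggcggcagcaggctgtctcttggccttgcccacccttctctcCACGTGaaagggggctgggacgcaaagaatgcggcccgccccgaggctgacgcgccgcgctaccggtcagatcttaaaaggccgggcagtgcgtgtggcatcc
Tpi1, chr6:124814109-124814408: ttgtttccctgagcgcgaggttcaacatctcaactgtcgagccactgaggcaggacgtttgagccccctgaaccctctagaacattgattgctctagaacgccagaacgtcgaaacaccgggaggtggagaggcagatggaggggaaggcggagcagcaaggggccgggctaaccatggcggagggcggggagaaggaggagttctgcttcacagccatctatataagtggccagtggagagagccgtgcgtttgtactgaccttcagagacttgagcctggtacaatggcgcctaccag
ACGTG was found in the Hk2 window at 2 places and in each Pfkfb3 window at 1 place, where the downstream start held it as CACGTG. No match lay in the Pfkl and Tpi1 windows, which says only that these letters are not in these 300 bases. Over the whole set, 7 of the 10 genes and 9 of their 15 windows held ACGTG, including 3 places at 1 start of Ldha and a pair of Aldoa windows that overlap, and 2 genes held CACGTG (Pfkfb3 and Ldha). Of all 27025 genes in the promoter table, 21.8% held ACGTG and 8.09% held CACGTG. Among the 7920 genes of that table that matched a gene at 5 FPKM or more in any library, these shares were 30.4% and 12.4%. The genes with the motif included the lowest (Pfkfb3, Hk2) and others with positive differences (Gapdh, Pgk1, Aldoa, Pkm, Ldha) in the mM-CSF library. A match is a description of the sequence and was not tied to any binding here.

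Total estimated counts were 8.57e+06 in the mM-CSF library, 8.94e+06 in the sM-CSF library and 9.09e+06 in the control library. The 10 genes together took 0.567% of the counts in the mM-CSF library, 0.361% in the sM-CSF library and 0.37% in the control library. Their summed level was 3311, 1980 and 2031 FPKM in the mM-CSF, sM-CSF and control libraries. Gapdh was the largest part of each sum. The macrophage markers Csf1r (222, 149 and 268 FPKM in the mM-CSF, sM-CSF and control libraries) and Adgre1 (67.5, 65.5 and 101 FPKM) were present in all 3.

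Markers of other cells moved with the libraries. Summed levels over a list of 12 neutrophil and granule genes were 1077, 218 and 209 FPKM in the mM-CSF, sM-CSF and control libraries. For 7 plasma cell genes they were 4418, 1459 and 1402 FPKM in mM-CSF, sM-CSF and control. For 10 B cell genes they were 3117, 2908 and 1588 FPKM, and for 9 listed T cell genes 565, 487 and 273 FPKM. A few genes made up much of the plasma and B cell sums in the mM-CSF library: Jchain 3301, Cd79a 1117 and Cd79b 918 FPKM. In mM-CSF against control 3 of 10 B cell genes were past 2-fold, all higher. Cd22 and Ms4a1 were negative (-0.28 and -0.04 in log2(FPKM + 1)). Of 9 T cell genes 5 were higher and 1 lower (Cd4, -1.10), and of 7 plasma cell genes 5 were higher. Subtracting the length trend left 4 T cell, 3 plasma cell and no B cell genes higher. Of 9 neutrophil and granule genes measured in that comparison 8 were higher, and 7 with the trend removed. Of 12 erythroid genes 5 were lower, and 7 with the trend removed. Over all genes 3.01% were higher and 7.77% lower with the trend removed. The 12 listed erythroid genes summed to 4603, 3995 and 5468 FPKM in mM-CSF, sM-CSF and control, the 12 macrophage genes to 4344, 1970 and 2387 FPKM, and the 14 proliferation genes to 845, 613 and 797 FPKM in the same library order. The C1q chains were the larger part of the macrophage sum in the mM-CSF library. Without C1qa, C1qb and C1qc (left out after their values were seen) the other 9 genes summed to 899, 822 and 1550 FPKM in mM-CSF, sM-CSF and control, lowest in the sM-CSF library and highest in the control. Of the 12 macrophage genes 4 were more than 2-fold higher and 3 more than 2-fold lower (Itgam -2.65, Lyz2 -1.93, Mertk -1.20, as differences of log2(FPKM + 1)) in mM-CSF against control, where 8.97% of all genes were higher and 15.1% lower. RNA of each group was present in all 3 libraries, and 2 genes of these lists, Ahsp (erythroid) and Trac (T cell), were not listed in any of the tables. The part of these cells in the levels of the glycolytic genes was not tested.

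The pathway starts with hexokinase. Hk2 encodes an inducible hexokinase, which phosphorylates glucose. It had 3.82 FPKM (184 counts) in the mM-CSF library, 6.50 FPKM (325 counts) in the sM-CSF library and 9.37 FPKM (475 counts) in the control library. Hk2 was the lowest of the 10 genes in every library. Its share of counts was 2.43-fold lower in the mM-CSF library than in the control library, with a 95% interval of 2.05 to 2.90 that covers counting error only, as do all intervals here. Its share in the sM-CSF library was 1.44-fold lower than in the control library (1.25 to 1.66).

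Gpi1 encodes glucose-6-phosphate isomerase, which makes fructose-6-phosphate. It had 224 FPKM in the mM-CSF library, 181 FPKM in the sM-CSF library and 164 FPKM in the control library. Its share of counts was 1.38 times that of the control in the mM-CSF library (1.32 to 1.43), the smallest upward ratio of the set, and 1.10 times in the sM-CSF library (1.06 to 1.15).

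The committing step is represented by Pfkl and Pfkfb3. Pfkl encodes the liver-type subunit of phosphofructokinase, which adds the second phosphate. It had 32.7 FPKM (1063 counts) in the mM-CSF library, 21.6 FPKM (729 counts) in the sM-CSF library and 18.0 FPKM (615 counts) in the control library. The share ratio against the control was 1.83 for the mM-CSF library (1.66 to 2.03) and 1.20 for the sM-CSF library (1.08 to 1.34). As deposited, Pfkl, Gpi1, Aldoa and Pkm had their levels in the order mM-CSF above sM-CSF above control. For Pkm the sM-CSF and control libraries were not apart beyond counting error. Under TPM Pfkl alone kept this order.

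Pfkfb3 encodes the enzyme that makes fructose-2,6-bisphosphate, a strong activator of phosphofructokinase. It had 8.22 FPKM (335 counts) in the mM-CSF library, 31.7 FPKM (1386 counts) in the sM-CSF library and 42.6 FPKM (1940 counts) in the control library. Its share of counts was 5.46-fold lower in the mM-CSF library than in the control library (4.86 to 6.15), and 1.38-fold lower in the sM-CSF library relative to the control library (1.29 to 1.48). Pfkl was above Pfkfb3 in the mM-CSF library and below it in the other two. The ratio of the Pfkfb3 level to the Pfkl level, both per length, was 0.251 in the mM-CSF library, 1.47 in the sM-CSF library and 2.37 in the control library. The tables list 8 transcripts of Pfkfb3, and the gene length listed for it was 4680 bases in the mM-CSF library, 4841 in the sM-CSF library and 4963 in the control library.

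Aldoa encodes aldolase A, which splits the sugar into a pair of triose phosphates. It was at 441, 285 and 269 FPKM in the mM-CSF, sM-CSF and control libraries, second to Gapdh in each. Tpi1 encodes triose-phosphate isomerase, which interconverts the products of aldolase. It had 145 FPKM (1992 counts) in the mM-CSF library, 68.8 FPKM (981 counts) in the sM-CSF library and 80.0 FPKM (1156 counts) in the control library. The sM-CSF share of Tpi1 relative to the control was 0.862 (0.791 to 0.940).

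Gapdh encodes glyceraldehyde-3-phosphate dehydrogenase, which makes NADH. It had 1635 FPKM (19317 counts) in the mM-CSF library, 868 FPKM (10945 counts) in the sM-CSF library and 921 FPKM (11842 counts) in the control library. Gapdh is widely used as a reference gene, and its share of counts was 1.73 times as high in the mM-CSF library as in the control library (1.69 to 1.77). The mouse genome holds many near-identical processed copies of Gapdh, its estimated counts were not whole in any library, and its level is uncertain to that extent. The level of Gapdh relative to Tpi1, the enzyme before it, was 11.3, 12.6 and 11.5 in the mM-CSF, sM-CSF and control libraries.

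Pgk1, the phosphoglycerate kinase gene whose product yields ATP, was at 136, 79.5 and 83.6 FPKM in the mM-CSF, sM-CSF and control libraries. Pkm, which encodes the muscle-type pyruvate kinases made by alternative splicing, was at 363, 219 and 217 FPKM in mM-CSF, sM-CSF and control. Ldha, which encodes the lactate dehydrogenase subunit that favours lactate formation, was at 321, 219 and 226 FPKM in mM-CSF, sM-CSF and control. In all 3 genes the mM-CSF library stood above the other two, which lay close together. The share ratios of the mM-CSF library to the control were 1.64 for Pgk1 (1.53 to 1.76), 1.68 for Pkm (1.62 to 1.74) and 1.43 for Ldha (1.37 to 1.5). Neighbours in the order of levels were not always apart beyond counting error: the intervals of Pkm and Ldha overlapped in the sM-CSF and control libraries, and those of Tpi1 and Pgk1 in the mM-CSF and control libraries.

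**Figure D1:**
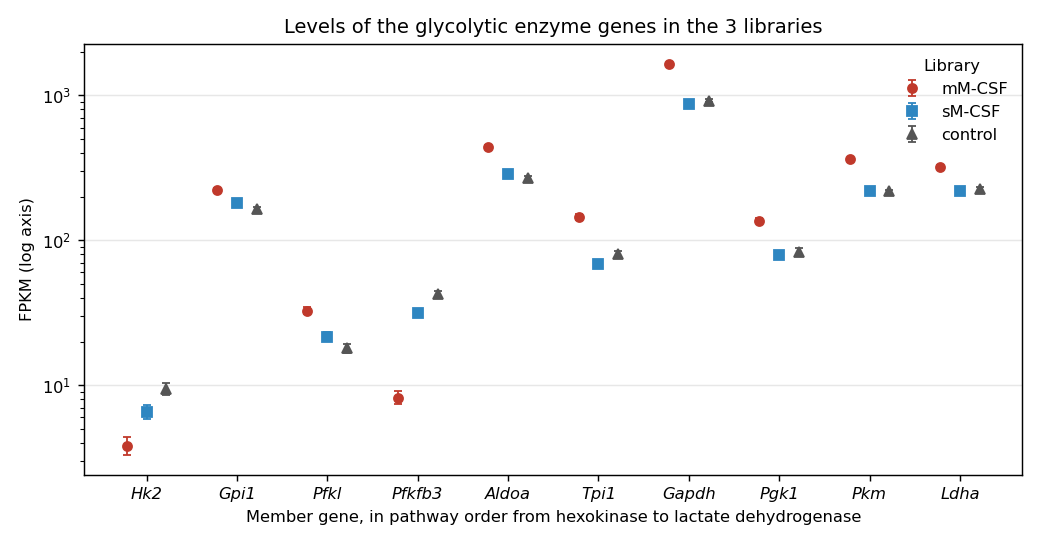
Level of each glycolytic enzyme gene (FPKM, log axis) in the mM-CSF, sM-CSF and control libraries, in pathway order; bars are 95% intervals for counting error in 1 library each. The mM-CSF point is the lowest for Hk2 (3.82 FPKM) and Pfkfb3 (8.22 FPKM) and the highest for the other 8 genes (for Gpi1 not after TPM scaling).

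Differences were next expressed as differences of log2(FPKM + 1), a scale that understates changes of low genes, and counted as higher or lower from 2-fold (1 on this scale) with at least 5 FPKM in the higher library. Between the mM-CSF and control libraries 2 of the 10 genes were lower, Pfkfb3 (-2.24) and Hk2 (-1.11), and none was higher. Of all 9789 genes compared, 15.1% were lower and 8.97% higher by the same rule. With upper-quartile scaling the Hk2 call ended (-0.95), and Tpi1 (1.03), Pfkl (1.01) and Gapdh (1.01) were higher. As deposited, the other 8 differences were positive, between 0.45 (Gpi1) and 0.85 (Tpi1), although TPM scaling turned that of Gpi1 to -0.01. The median over the 10 genes was 0.71, against -0.05 over all genes. All 10 ratios of count shares had intervals that left out 1.

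Between the sM-CSF and control libraries none of the 10 genes passed the 2-fold rule, where 1.63% of 9683 genes were lower and 0.785% higher. The most negative differences as deposited were again those of Hk2 (-0.47) and Pfkfb3 (-0.42), and the most positive was that of Pfkl (0.25). Both comparisons use the same control library, so a low or high control value moves both. Differences were positive for 4 genes and negative for 6, with a median of -0.06 against 0.02 over all genes. The sign of Gpi1 (0.14), Aldoa (0.08) and Pkm (0.01) turned under TPM, and that of Pkm also with median-of-ratios scaling. The share ratio intervals left out 1 for 7 genes and included it for Pgk1 (0.883 to 1.03), Pkm (0.970 to 1.05) and Ldha (0.924 to 1.02).

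Set directly against each other, the mM-CSF library had Tpi1 higher than the sM-CSF library (1.07) and Pfkfb3 lower (-1.83). These were 1 higher and 1 lower of 10 genes, where 3.79% of 9574 genes were higher and 8.73% lower. The Tpi1 share was 2.12 times that of the sM-CSF library (1.96 to 2.29), and the Pfkfb3 share was 3.96-fold lower (3.52 to 4.48). Gapdh (0.91), Pgk1 (0.77) and Pkm (0.72) came next among the positive differences, and Hk2 was at -0.64. The median of the 10 genes was 0.60, against -0.08 over all genes. The Tpi1 call was lost under TPM, and the sign of Gpi1 (0.31) turned there.

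Gene length bore on these values. In the mM-CSF library against the control, differences over all genes ran with gene length: the median was 1.07 in the shortest of 20 equal-sized length bins and -1.25 in the longest, and Spearman's rho with length was -0.67. Over the 10 glycolytic genes rho was -0.58, as a description of genes that share the same libraries. The lower 2 of them, Hk2 with 5524 bases and Pfkfb3 with a mean of 4828 bases, were also the longest. Gapdh, Aldoa, Tpi1, Ldha and Pgk1, all positive, had no more than 1840 bases. The other comparisons had such a trend too. In sM-CSF against control the bin medians ran from 0.34 to -0.33 (rho -0.45 over all genes, -0.14 over the 10). In mM-CSF against sM-CSF they ran from 0.72 to -0.89 (rho -0.64 over all genes, -0.77 over the 10). What makes these trends was not tested. With 1 library a group a length effect of library making and a difference between the cells cannot be told apart.

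Within its own length bin each gene took another place. Among the 489 genes of the Hk2 bin the median difference was -0.76, and 33.5% of them were lower by the 2-fold rule, so that Hk2 at -1.11 was among many. The Pfkfb3 bin had a median of -0.64 and 23.5% lower genes, and 9 of its 489 genes had a difference below that of Pfkfb3. Pfkl lay at the other end of its bin: the median there was -0.43, and 7 of 489 genes had a difference above its 0.83. Pkm, at 0.74 in a bin with a median of 0.12, had 45 of 490 genes above it. The 5 shortest genes all lay above their bin medians, Gapdh at 0.83 where the bin median was 0.58, Ldha at 0.51 and 0.36, Aldoa at 0.71 and 0.45, Tpi1 at 0.85 and 0.45, and Pgk1 at 0.70 and 0.26.

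**Figure D2:**
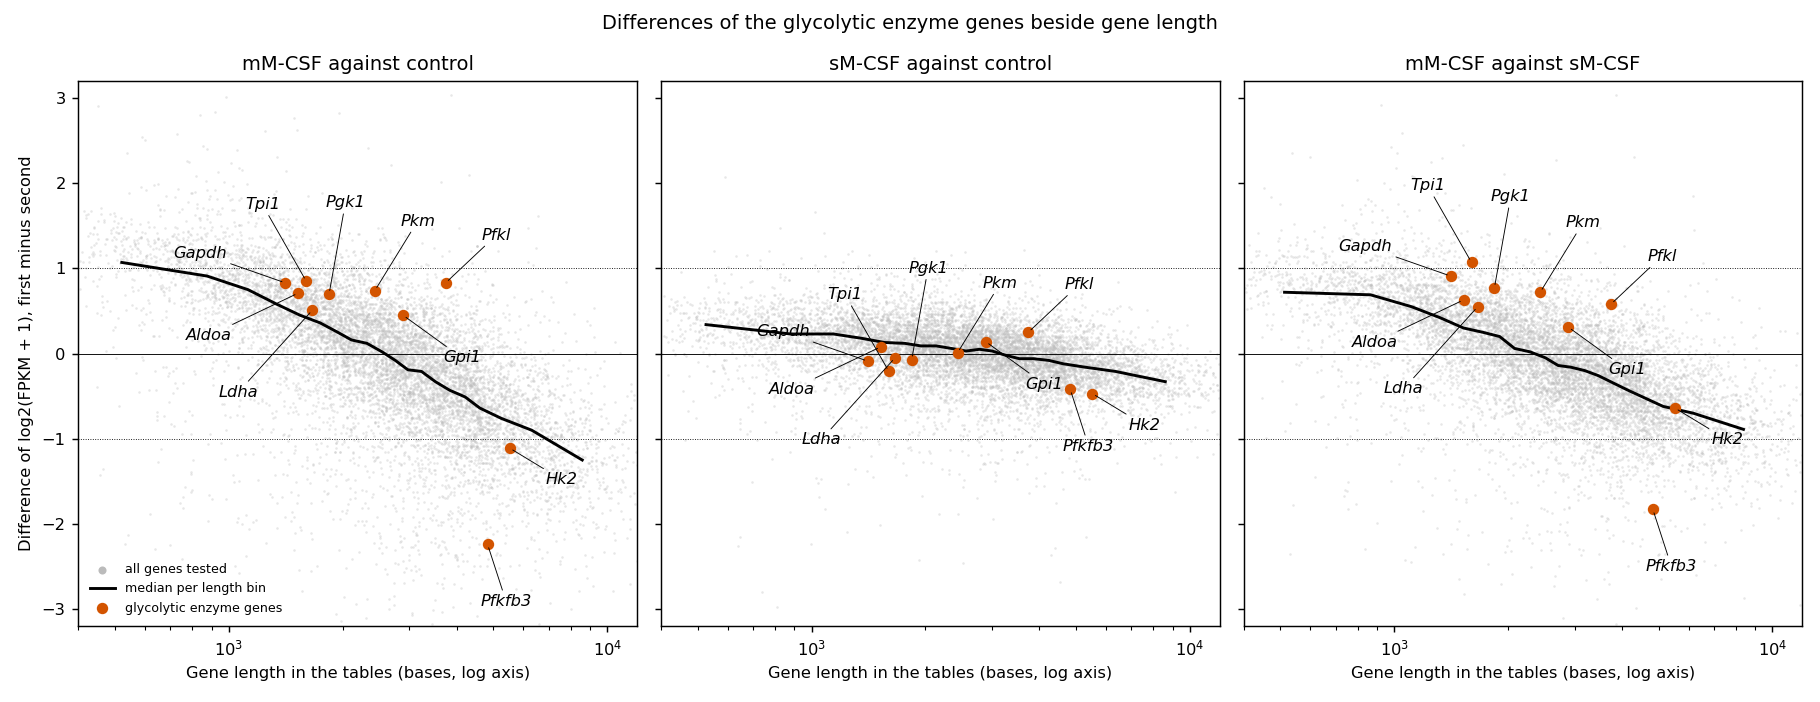
Difference of log2(FPKM + 1) against gene length (bases, log axis) for all genes compared (grey), with the median per length bin (line) and the 10 glycolytic enzyme genes (orange), in 3 comparisons named as first against second library; dotted lines mark 2-fold, and genes beyond the axes are not drawn. In mM-CSF against control the line falls from 1.07 to -1.25, Pfkl (0.83) lies above it and Pfkfb3 (-2.24) below it.

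Subtracting the bin medians as an interpolated trend left 1 gene lower and 1 gene higher in the mM-CSF library against the control. Pfkfb3 was still lower, at -1.56, and Pfkl was now higher, at 1.23. By the same measure 7.77% of all genes were lower and 3.01% higher. Hk2 was at -0.31, inside 2-fold. The other genes lay between 0.11 (Ldha) and 0.67 (Pkm), and the median of the 10 was 0.34. In the sM-CSF library against the control, with the trend removed, none of the 10 was past 2-fold, where 0.496% of all genes were higher and 1.81% lower. Pfkl (0.31) and Gpi1 were then the only positive genes of the 10, since Aldoa and Pkm changed sign. Tpi1 was then the most negative (-0.34), with Hk2 (-0.29), Pfkfb3 (-0.28) and Gapdh (-0.25) close to it. In mM-CSF against sM-CSF Pfkfb3 was lower, at -1.26, and no gene was higher, where 4.66% of all genes were lower and 2.01% higher. Pfkl was at 0.91 and Tpi1 at 0.79 there, and Hk2 changed sign to 0.01.

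**Figure D3:**
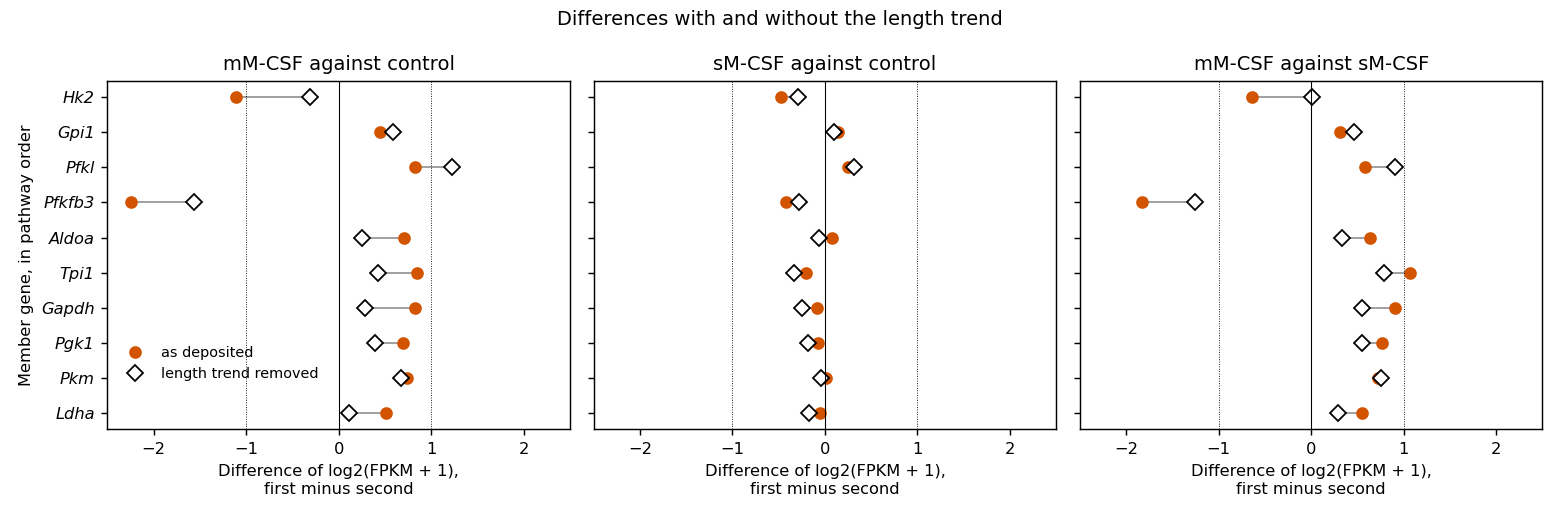
Difference of log2(FPKM + 1) of each glycolytic enzyme gene before (orange) and after (open) subtraction of the length trend, in 3 comparisons; dotted lines mark 2-fold. In mM-CSF against control Pfkfb3 stays past 2-fold (-2.24 and -1.56) and Hk2 does not (-1.11 and -0.31). Pfkl passes it after the subtraction (1.23) and not before (0.83).

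The lengths of the genes came from different parts of their transcripts. In the GENCODE vM21 annotation, the transcript of Pfkfb3 nearest to the tables' length had 4801 bases, of which 1503 were coding (31.3%) and 3063 were 3′ UTR. That of Hk2 had 5513 bases, with 2754 coding and 2285 of 3′ UTR. Pfkl, at 3730 bases, had 2343 coding bases and 1263 of 3′ UTR. Among the 5 shortest genes the 3′ UTR had 178 bases in Gapdh, 185 in Aldoa, 420 in Pgk1, 486 in Ldha and 683 in Tpi1. Over the 10 genes rho of the mM-CSF against control difference was -0.50 with transcript length, -0.38 with coding length and -0.43 with 3′ UTR length (n = 10 genes of the same libraries, a description).

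Other isozymes of the same steps were compared per length. At the hexokinase step Hk2 was the smallest part in every library, at 5.52% of the summed FPKM in the mM-CSF library, 11.4% in the sM-CSF library and 13.5% in the control library. Hk1, the widely expressed hexokinase, made up 50.1%, 56.6% and 60.8%, and Hk3, the hexokinase of myeloid cells, 44.4%, 32.0% and 25.8% in the mM-CSF, sM-CSF and control libraries. The summed level of the step was 69.3, 57.2 and 69.5 FPKM, so its make-up differed while its sum in the mM-CSF library was near that of the control. The nearness of the sums holds for the deposited scaling only, since TPM moves the median of all genes in this comparison by -0.49. In mM-CSF against control the differences were 0.75 for Hk3 (3111 bases), -0.28 for Hk1 (4156 bases) and -1.11 for Hk2. With the length trend removed they were 0.95, 0.22 and -0.31 in that order of genes.

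At the phosphofructokinase step the part of Pfkl was 49.9% in the mM-CSF library, 45.5% in the sM-CSF library and 37.5% in the control library. The part of Pfkp, the platelet type, was 37.2%, 42.0% and 44.4% in mM-CSF, sM-CSF and control, and that of Pfkm, the muscle type, 13.0%, 12.5% and 18.1%. The level of Pfkl relative to Pfkp was 1.34 in the mM-CSF library (1.23 to 1.47), 1.09 in the sM-CSF library (0.979 to 1.21) and 0.844 in the control library (0.758 to 0.939). Pfkl and Pfkp are close in length (3741 and 4033 bases).

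Among the genes that set fructose-2,6-bisphosphate, Pfkfb3 held 41.8% of the summed FPKM in the mM-CSF library, 61.7% in the sM-CSF library and 66.9% in the control library. The sum itself was 19.7, 51.4 and 63.7 FPKM in mM-CSF, sM-CSF and control. Pfkfb4 was at 5.29, 8.97 and 10.7 FPKM in the mM-CSF, sM-CSF and control libraries. Pfkfb2 was at 1.41, 4.04 and 5.27 FPKM in mM-CSF, sM-CSF and control, lower in mM-CSF against the control (-1.38, or -0.49 with the trend removed), with 6247 bases. Tigar, whose product breaks fructose-2,6-bisphosphate down, was at 2.96, 4.56 and 4.07 FPKM in mM-CSF, sM-CSF and control. Pfkfb3, Pfkfb4 and Pfkfb2 thus had their levels in the order control above sM-CSF above mM-CSF, whereas Pfkfb1 was low and had its lowest level in the control (1.79, 2.11 and 1.07 FPKM in mM-CSF, sM-CSF and control).

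Enolase, the step between phosphoglycerate mutase and pyruvate kinase, differed in the proportion of its isozymes. Eno1, the common form, had 532 FPKM in the mM-CSF library, 298 FPKM in the sM-CSF library and 280 FPKM in the control library. Eno3, the muscle form, was at 21.7, 41.9 and 70.5 FPKM in mM-CSF, sM-CSF and control. The ratio of Eno1 to Eno3 was 24.5, 7.11 and 3.97 in the mM-CSF, sM-CSF and control libraries. Eno3 has 1521 bases and Eno1 has 1831. The Eno3 difference from the control in the mM-CSF library was -1.66 as deposited and -2.12 with the trend removed.

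Pyruvate kinase was almost all Pkm. Pklr, the liver and red cell form, had 8.99 FPKM in the mM-CSF library, 8.42 FPKM in the sM-CSF library and 18.4 FPKM in the control library. The difference of Pklr in the sM-CSF library against the control was -1.04, and -1.09 with the trend removed. The erythroid marker sums given above were also lowest in the sM-CSF library and highest in the control library, and their part in this was not tested. The ratio of Pkm to Pklr was 40.4, 26.0 and 11.8 in the mM-CSF, sM-CSF and control libraries. Ldhb, the subunit that favours pyruvate formation, was low beside Ldha, at 6.31, 3.92 and 2.08 FPKM in mM-CSF, sM-CSF and control, and higher in the mM-CSF library than in the control by 1.25, or 0.65 with the trend removed. Pgam1, the main phosphoglycerate mutase, was at 99.1, 70.5 and 74.2 FPKM in mM-CSF, sM-CSF and control, and the red cell mutase gene Bpgm at 13.6, 11.0 and 12.2 FPKM. The remaining isozymes were low: Pgam2 had 4.98, 3.03 and 6.72 FPKM, Aldoc 2.97, 1.66 and 1.51 FPKM, Eno2 0.67, 3.09 and 3.44 FPKM, and Gapdhs 0.24, 1.14 and 1.05 FPKM in mM-CSF, sM-CSF and control.

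**Figure D4:**
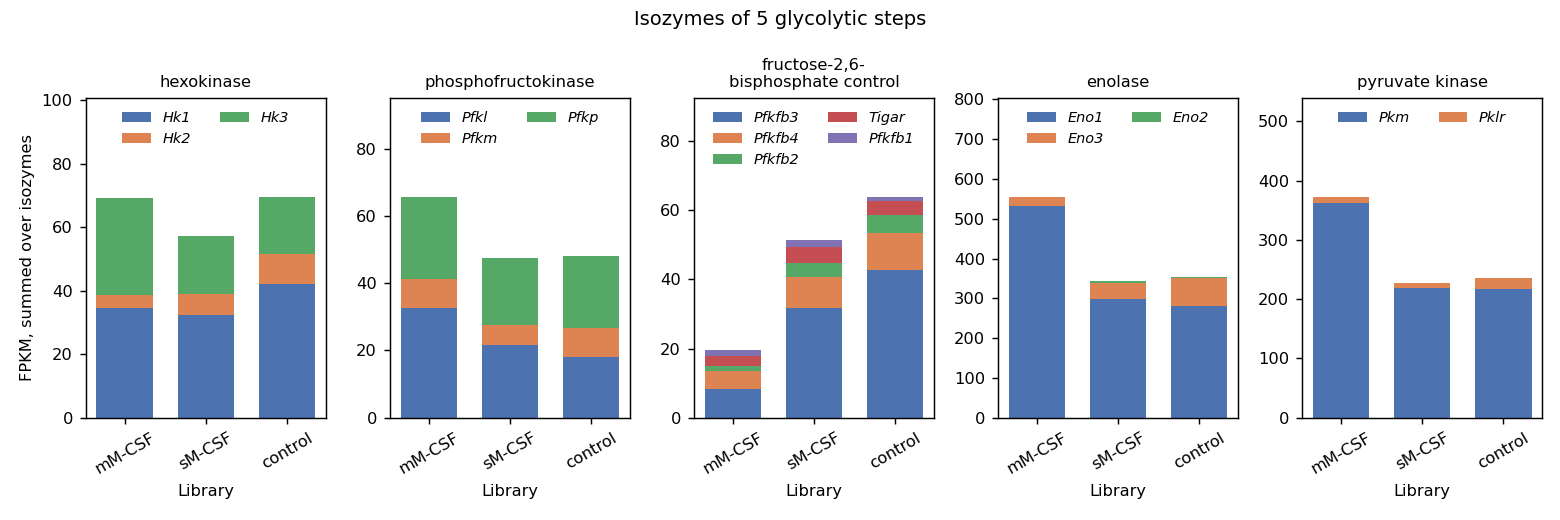
FPKM of the isozyme genes of 5 steps, stacked, in the mM-CSF, sM-CSF and control libraries; isozymes under 1 FPKM in all 3 are left out. Pfkfb3 and the whole fructose-2,6-bisphosphate group are lowest in the mM-CSF library (19.7 FPKM in sum, against 63.7 FPKM in the control), and Eno1 is highest there (532 FPKM).

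Over the other isozymes and steps, 13 genes were measured (5 FPKM or more in either library) between the mM-CSF and control libraries, of which 1 was higher (Ldhb) and 2 were lower (Pfkfb2, Eno3), with a median of -0.03. These counts were near the shares of all genes, 8.97% higher and 15.1% lower. Between the sM-CSF and control libraries 12 were measured, 1 was lower (Pklr), none was higher, and the median was -0.27, where 1.63% of all genes were lower. In mM-CSF against sM-CSF none of 11 passed the rule, where 3.79% of all genes were higher and 8.73% lower. The median of the 11 was 0.28.

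Transport of glucose and lactate frames the pathway. Of 8 transport genes measured between the mM-CSF and control libraries 3 were lower and none was higher, where 15.1% and 8.97% of all genes were, with a median of -0.22 that became 0.12 with the trend removed. Slc2a3, which encodes the high-affinity glucose transporter GLUT3, had 6.08 FPKM in the mM-CSF library, 19.8 FPKM in the sM-CSF library and 16.3 FPKM in the control library. Slc2a6, which encodes the transporter GLUT6, was at 10.7, 13.3 and 25.3 FPKM in mM-CSF, sM-CSF and control. Slc16a3, which encodes the lactate exporter MCT4, was at 6.55, 5.70 and 16.8 FPKM in mM-CSF, sM-CSF and control, and thus lower in both the mM-CSF and the sM-CSF library than in their shared control. With the trend removed, Slc2a6 and Slc16a3 remained past 2-fold in the mM-CSF library against the control (-1.32 and -1.29), and Slc2a3 did not (-0.83). Slc2a1, which encodes the common transporter GLUT1, was at 15.9, 16.3 and 12.9 FPKM, and Bsg, a partner of lactate transporters, at 221, 141 and 130 FPKM in the mM-CSF, sM-CSF and control libraries.

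Of 15 regulators of the pathway measured between the mM-CSF and control libraries 3 were lower and none was higher, with a median of -0.60, where 15.1% of all genes were lower and 8.97% higher. With the trend removed none passed, and the median was -0.11. Hif1a, a subunit of HIF-1, had 11.5 FPKM in the mM-CSF library, 22.6 FPKM in the sM-CSF library and 25.0 FPKM in the control library. Mlxip, a glucose-sensing transcription factor gene, was at 9.29, 25.9 and 26.9 FPKM in mM-CSF, sM-CSF and control, and Mtor, a nutrient-sensing kinase gene, at 3.23, 7.41 and 9.83 FPKM. Myc was near level, at 52.1, 53.9 and 55.7 FPKM in mM-CSF, sM-CSF and control. In mM-CSF against sM-CSF the only genes past 2-fold in the transport, regulator and HIF target lists were Slc2a3 (-1.56), Mlxip (-1.39), Bhlhe40 (-1.23) and Mif (1.06). Over all genes 3.79% were higher and 8.73% lower in that comparison. Of 12 HIF target genes outside glycolysis 1 was higher (Mif) and 1 lower (Bhlhe40) in the mM-CSF library against the control, with a median of 0.03. The transcriptional repressor gene Bhlhe40 was at 15.1, 36.8 and 64.9 FPKM in mM-CSF, sM-CSF and control, with a difference of -2.04, or -1.84 with the trend removed. The cytokine gene Mif was at 445, 214 and 189 FPKM in mM-CSF, sM-CSF and control, with a difference of 1.23, or 0.18 with the trend removed.

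Neighbouring pathways were counted by the same rule, by which 8.97% of all genes were higher and 15.1% lower in mM-CSF against control. In the mM-CSF library against the control 1 of 8 pentose phosphate genes was higher (Pgls, 183 FPKM in mM-CSF and 78.0 FPKM in control, 1.22, or 0.33 with the trend removed). In the citric acid cycle 1 of 18 genes was higher (Mdh1, 142 FPKM in mM-CSF and 68.0 FPKM in control, 1.05, or 0.81 with the trend removed). None of 7 gluconeogenesis and glycogen genes and none of 11 genes for pyruvate entry to mitochondria passed, with medians of 0.23 and -0.19. TPM scaling moves the median of all genes in this comparison by -0.49, enough to turn the positive list medians given here. The largest differences in these were those of Pygl (13.4 FPKM in mM-CSF and 24.9 FPKM in control, -0.84) and the pyruvate dehydrogenase phosphatase gene Pdp2 (2.25 FPKM in mM-CSF and 5.32 FPKM in control, -0.96). Between the sM-CSF and control libraries Slc16a3 was the only gene past 2-fold in the 7 lists of transport, regulators, HIF targets and these pathways. Over all genes 0.785% were higher and 1.63% lower in that comparison. The largest differences there were those of the glycogen phosphorylase gene Pygl (13.5 FPKM in sM-CSF and 24.9 FPKM in control, -0.84), the glucose-6-phosphate dehydrogenase gene G6pdx (33.9 FPKM in sM-CSF and 46.9 FPKM in control, -0.46), Pdk2 (8.13 FPKM in sM-CSF and 5.02 FPKM in control, 0.60) and Idh3b (79.4 FPKM in sM-CSF and 63.3 FPKM in control, 0.32), 1 from each neighbouring pathway.

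**Figure D5:**
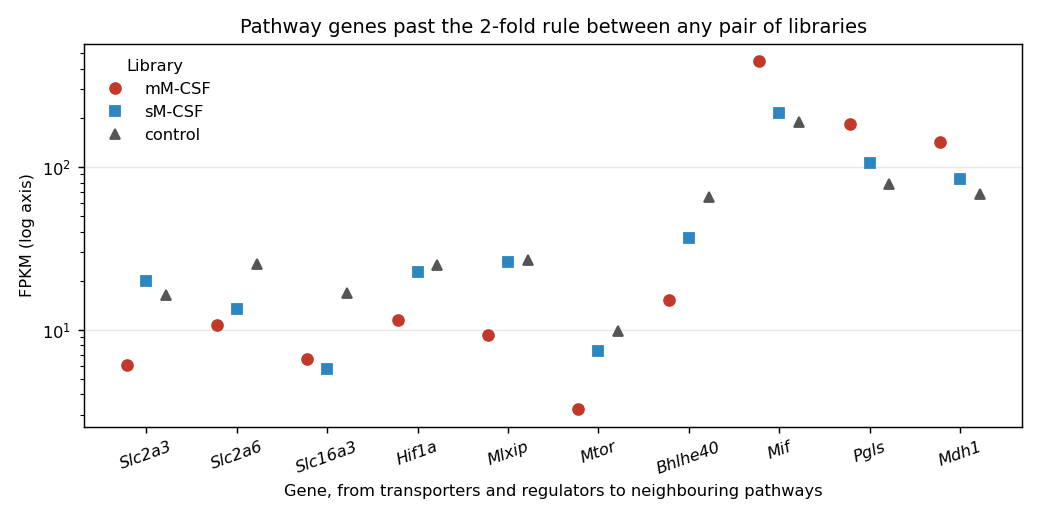
FPKM (log axis) in the mM-CSF, sM-CSF and control libraries of the transport, regulator, HIF target and neighbouring pathway genes past 2-fold between any pair of libraries. The transporters Slc2a3 and Slc2a6 and the regulators Hif1a, Mlxip and Mtor are lowest in the mM-CSF library, and Mif, Pgls and Mdh1 are highest there.

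The median pattern of the 10 genes, higher in the mM-CSF library and level between the sM-CSF and control libraries, was compared with that of other genes. Of 7482 genes at 10 FPKM or more, 62 lay within a Euclidean distance of 0.1 of it over both differences from the control. The 5 nearest were Dnajb13, Mrpl16, Cdk4, Get4 and Srprb. Cdk4, a cell cycle kinase gene, was at 202, 120 and 123 FPKM in the mM-CSF, sM-CSF and control libraries.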

How the data were processed

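RNA from sorted spleen macrophages was measured in 3 libraries, 1 a group, from 1 ug of total RNA on a BGISEQ-500, per the labels' protocols. The submitters' processing notes name Bowtie2 (2.2.5) and RSEM. Not given in the sources used here were the genome build, annotation, strand use and read type. The deposited tables hold, per the file headers, an expected count (the authors' estimate of a gene's reads, which need not be whole), a gene length in bases and an FPKM value that the authors scaled to length and mapped fragments. Of the 10 glycolytic genes, 5 had whole counts (within 0.005) in every library, 4 (Gpi1, Pfkl, Pfkfb3, Gapdh) in none, and Ldha in some. Counts that are not whole arise where reads are divided between genes or transcripts.

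The authors' values were used as deposited, and a gene missing from a table was taken as 0. Symbols came from a RefSeq table of GRCm38.p6 through the NCBI gene IDs (54 genes had none), and promoters from RefSeq on the same assembly. Transcript parts were read from GENCODE vM21. Of 212 list genes 204 were in the tables.

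Differences of log2(FPKM + 1), with a pseudocount of 1, were computed in Python 3.11.15 with numpy 2.4.6, pandas 2.3.3 and scipy 1.17.1. They were called from 2-fold with at least 5 FPKM in the higher library, and over all genes at 5 FPKM or more in either library. Share ratios came from the expected counts, rounded to whole numbers, with an exact conditional (Clopper-Pearson) 95% interval. Intervals cover counting error only. A floor of 3 counts is 0.35, 0.335 and 0.33 CPM in the mM-CSF, sM-CSF and control libraries. The length trend was the median difference in 20 equal-sized length bins, interpolated. The calculations were tested on simulated data. The text names all 10 genes and the isozymes at 1 FPKM or more in any library. From the other lists it names up to 4 genes past 2-fold or else the gene with the largest difference, though not for every list and comparison. Slc2a1, Bsg and Myc were added after their values were seen. The members, the lists and the rules were chosen with earlier results of these data known. Alternatives were another pseudocount, minimum, scaling and size rule, and 40 length bins, the last added after seeing the data.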

Additional observations from a re-analysis of the deposited data

How the results depend on the processing

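No paired analysis was possible because each group had 1 library, and for the same reason no library could be left out. Another scaling moves every gene by nearly a constant on the log2 scale: the median of all genes moved by -0.49, -0.14 and -0.34 under TPM, by 0.09, -0.05 and 0.14 with median-of-ratios, and by 0.19, 0.01 and 0.17 with upper-quartile scaling, for mM-CSF against control, sM-CSF against control and mM-CSF against sM-CSF. For mM-CSF against control, the glycolytic median of 0.71 became 0.24 under TPM, 0.79 with median-of-ratios, 0.89 with upper-quartile scaling, and 0.34 or 0.35 with a trend of 20 or 40 length bins. Its higher genes numbered 3 with upper-quartile scaling, 1 with either trend and 6 at 1.5-fold, in place of none, and its lower genes 1 with upper-quartile scaling and with either trend, in place of 2. For sM-CSF against control the median of -0.06 became -0.20 under TPM and -0.17 with either trend. For mM-CSF against sM-CSF the median of 0.60 became 0.29 under TPM, 0.74 with median-of-ratios, 0.77 with upper-quartile scaling and 0.50 with 40 bins. Its higher genes numbered 0 under TPM and with either trend, 2 with either of the remaining scalings and 5 at 1.5-fold, in place of 1, and its lower genes 2 at 1.5-fold. Over all genes, mM-CSF against control had 878 higher and 1480 lower genes, against 281 and 3406 under TPM, 1087 and 1309 with median-of-ratios and 1333 and 1126 with upper-quartile scaling. For mM-CSF against sM-CSF these were 363 and 836, against 182 and 2174, 584 and 614, and 673 and 562. For sM-CSF against control they were 76 and 158, against 98 and 364, 65 and 179, and 77 and 150. A pseudocount of 0.1 kept all 30 single-gene values of the set within their counting intervals. Pfkfb3 remained lower in the mM-CSF library than in either other library under every setting named here. The causes were not tested. Without replicates, the spread between mice is unknown, and the counting intervals cover only part of the error.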
